A study of Mus musculus with 6 samples.

Results

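The 10 genes described here handle fatty acids from their release to their oxidation. They are the lipase gene Lpl, the uptake gene Cd36, the fatty acid binding protein genes Fabp3, Fabp5 and Fabp7, the activating acyl-CoA synthetase genes Acsl3, Acsl4 and Acsl6, and the carnitine palmitoyltransferase genes Cpt1a and Cpt1c. Every probe set annotated to exactly 1 of these symbols was taken, which gave 22 of the 45037 probe sets tested, for 10 of 18193 genes. The transgenic mice were adult males of line L26, homozygous for daDREAM, and they were compared with adult male wild type (WT) littermates. Both groups had the mixed C57B6xCBA background, and neither received a stated stimulus. Hippocampal RNA of 3 mice per group was hybridised to Affymetrix Mouse Genome 430 2.0 arrays, as independent biological replicates by the series design text. All L26 values come from 1 transgenic line, and the promoter that drives the transgene is not given in the sources used here. daDREAM is a dominant active form of DREAM, the calcium-regulated transcriptional repressor encoded by Kcnip3.

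Lipoprotein lipase releases fatty acids from the triglycerides of circulating lipoproteins, and in the hippocampus it is made by neurons as well. Fatty acids enter cells partly through CD36, are carried through the cytosol by small binding proteins, and are trapped as acyl-CoA by the ACSL enzymes before they are built into membranes or oxidised. In the brain Fabp7 marks radial glia and astrocytes, Fabp5 is found in glia and neurons, and Fabp3 mainly in neurons. The genes were chosen by name with the log2 differences between L26 and WT on these same arrays in view, Fabp7 among those seen to differ. The L26 against WT values and calls of the members are therefore given as a description, with errors and without printed p-values. They support nothing further. Genes outside the set were tested in the fit over all genes, at an adjusted p threshold of 0.05. Their lists were also chosen with earlier results of these data known, so list counts and adjusted p-values are a description too.

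Promoter sequence is shown for the binding protein genes with the highest and the lowest difference of the set, Fabp7 and Fabp3. DREAM is known to bind the downstream regulatory element, whose core is GTCA, so that core is marked in capitals on either strand (GTCA, or TGAC where it lies on the opposite strand). RefSeq promoters of build GRCm38.p6 covered 8 of the 10 genes, with 10 start sites in all, and each runs from 250 bases before the start over 50 bases from the start on. Lpl and Fabp5 had none in the table. Below are the 250 bases before each start, 5′ to 3′ on the plus strand, chr10:57784673-57784922 for Fabp7 and chr4:130308488-130308737 for Fabp3.
Fabp7: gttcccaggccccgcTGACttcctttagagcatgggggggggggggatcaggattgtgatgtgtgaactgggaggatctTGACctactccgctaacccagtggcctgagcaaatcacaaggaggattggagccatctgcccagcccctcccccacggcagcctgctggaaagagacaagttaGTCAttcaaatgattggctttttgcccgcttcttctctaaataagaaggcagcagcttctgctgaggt
Fabp3: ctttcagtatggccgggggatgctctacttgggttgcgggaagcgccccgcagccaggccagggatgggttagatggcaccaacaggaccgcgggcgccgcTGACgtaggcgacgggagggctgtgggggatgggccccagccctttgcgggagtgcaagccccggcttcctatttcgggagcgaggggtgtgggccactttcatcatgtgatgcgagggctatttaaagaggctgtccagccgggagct
The Fabp7 window held 3 matches, 1 on the gene's own strand 68 bases before the start and 2 on the opposite strand. In the Fabp3 window 1 match was found, on the opposite strand. Such a short core is common, since 85.2% of 32851 mouse promoters of the same length hold it, with a median of 2 matches each. Of the 10 member promoters 9 held it. The nuclear receptor core AGGTCA, which contains the GTCA core, was found in 5 of the 10 member promoters, Fabp7 included, and in 16.3% of all promoters. The AP-1 site TGANTCA was found in 1 member promoter, at Acsl6, where it overlaps a GTCA core, and in 7.81% of all. The cyclic AMP response element TGACGTCA, which also contains GTCA, was found in 0 of 10 and in 1.79% of all. These matches describe the letters of the windows and say nothing about binding.

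The arrays of a group were alike. Pearson correlations across probe sets were 0.9971 to 0.9979 within a group and 0.9944 to 0.9958 between groups, and the median log2 value of an array was 7.27 to 7.32. The 3′ signal of the actin control exceeded the 5′ signal by 0.41 to 0.51 in L26 arrays, against 0.40 to 0.41 in WT arrays. Kcnip3 itself had differences of -0.17 (SE 0.07, adjusted p = 0.208) and -0.32 (SE 0.07, adjusted p = 0.0393, limma over all probe sets) on its probe sets. The second passed, and their coverage of the transgene is not known here. As for the labelled tissue, all 7 measured CA1 genes, 8 of 9 CA3 genes and all 11 dentate granule genes exceeded the array median on all 6 arrays. So did all 11 cortical and subicular, 11 interneuron, 15 astrocyte and 15 oligodendrocyte lineage genes, so these levels do not set hippocampus apart from its neighbours.

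Lpl and Fabp7 were higher in L26 hippocampus, and the other 8 genes had no probe set past the threshold (adjusted p under 0.05, limma over all probe sets). In numbers, 3 of the 22 member probe sets were called higher, where 1.98% of all probe sets were, and 0 were called lower, where 1.94% of all were (3.92% in either direction). An unadjusted p under 0.05 was found for 7 member probe sets with a higher and 1 with a lower L26 mean, and for 18.1% of all probe sets in either direction. The contrast was known when the genes were chosen, so nothing is read from these calls and shares. All 3 L26 arrays lay above all 3 WT arrays on 7 of the 22 probe sets, against 12.5% of all probe sets, and below them on 1, against 9.32%. The other 14 overlapped. The median difference was 0.1 over the 22 probe sets and 0.01 over all probe sets, on the log2 scale. With arrays centred on their medians the overall balance shifted to 717 higher and 1149 lower calls, against 892 and 872 as deposited, while the members kept 3 higher and 0 lower.

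**Figure D1:**
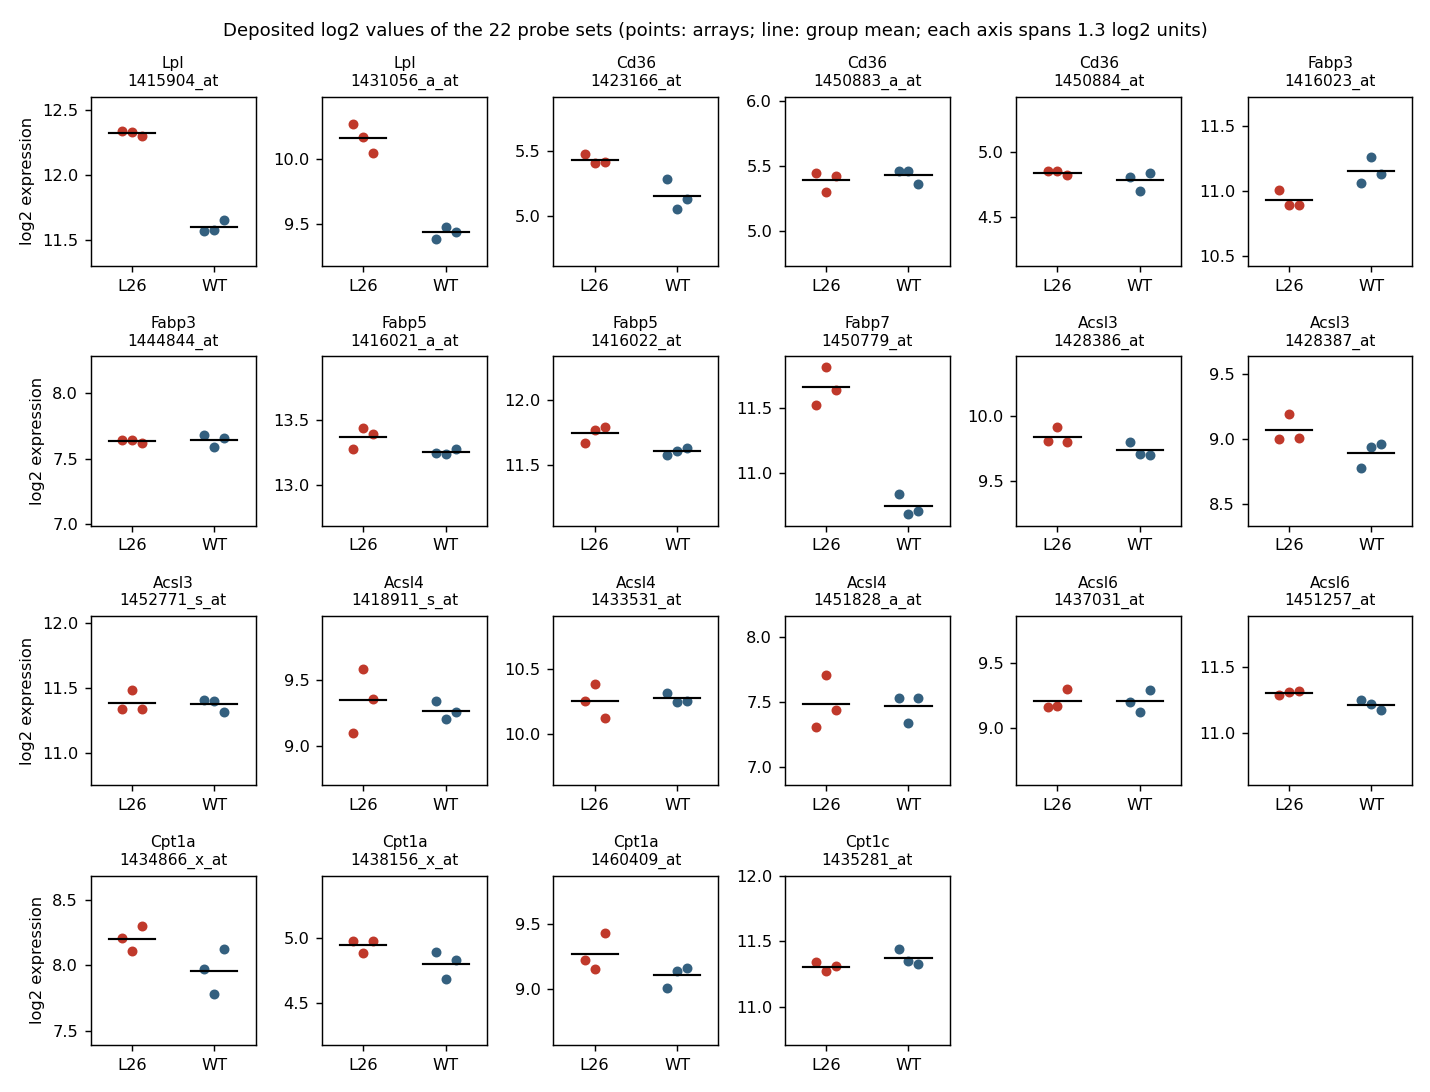
Deposited log2 values of the 22 member probe sets, with L26 left of WT, a point for each array and a line at each group mean. The y axes have the same span but different positions, and L26 and WT stand well apart in the Lpl and Fabp7 panels.

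Lpl, which encodes the lipase, was measured by 2 probe sets that gave nearly the same difference. On 1415904_at the L26 arrays had 12.34, 12.33 and 12.30, against 11.57, 11.58 and 11.66 in WT arrays. On 1431056_a_at they had 10.27, 10.17 and 10.05 in L26, against 9.39, 9.48 and 9.44 in WT. The groups were separated on both, by a gap wider than the spread within either group. The differences were 0.72 (SE 0.05) and 0.73 (SE 0.07), each a 1.65-fold higher level, with 95% intervals of 1.51 to 1.79 and 1.49 to 1.84. Over 14 alternative settings the first ranged from 0.69 to 0.75 and the second from 0.67 to 0.78. Several of these settings cannot move a difference of this kind, so the ranges come from the others. These are the replicate block, the trend with robust prior, the threshold of 0.1 and the removal of other probe sets. In tissue RNA of this kind, more cells of a type and more RNA per cell cannot be told apart.

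Fabp7, the binding protein gene of radial glia and astrocytes, had the highest difference of the set. Its single probe set, 1450779_at, read 11.52, 11.81 and 11.64 in L26 arrays, against 10.84, 10.68 and 10.71 in WT arrays. No L26 value came near the WT values. The means were 11.66 ± 0.15 in L26 and 10.74 ± 0.09 in WT (SD, n = 3 each). The difference of 0.91 (SE 0.08) is a 1.88-fold higher level (95% interval 1.66 to 2.14). It ranged from 0.84 to 0.98 over 14 alternative settings, of which, as for Lpl, several cannot move it.

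The 2 other binding protein genes differed far less from WT. Fabp3, also known as the heart-type protein, was the only member with a probe set on which every L26 value was the lower one. On 1416023_at it had 11.01, 10.89 and 10.89 in L26 arrays, against 11.06, 11.26 and 11.13 in WT arrays. This difference of -0.22 (SE 0.07, 95% interval -0.38 to -0.06) did not pass, and 1444844_at, its other probe set, had -0.01 (SE 0.05). The lower L26 values were thus seen on 1 of 2 probe sets. Fabp5, the epidermal-type protein gene that is broadly expressed in brain, leaned the other way. Its probe sets 1416021_a_at and 1416022_at, annotated to the same transcript record, had 0.11 (SE 0.06) and 0.14 (SE 0.06). On 1416022_at the L26 values of 11.67, 11.77 and 11.79 all exceeded the WT values of 11.58, 11.61 and 11.63, by a narrow margin, and neither passed.

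Cd36, the scavenger receptor and fatty acid uptake gene, lay near the bottom of the arrays. All 3 of its probe sets had means below 5.95, the lower quartile of all probe sets, so its differences may be compressed. On 1423166_at the values were 5.48, 5.41 and 5.42 in L26 arrays, against 5.29, 5.06 and 5.13 in WT arrays. The groups did not overlap there, and the difference was 0.28 (SE 0.07), short of the threshold. It passed without WT replicate 1, where it was 0.34, with an intensity trend and at a threshold of 0.1. The other probe sets, 1450883_a_at and 1450884_at, are annotated to the same transcript record and had -0.04 (SE 0.06) and 0.06 (SE 0.06).

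**Figure D2:**
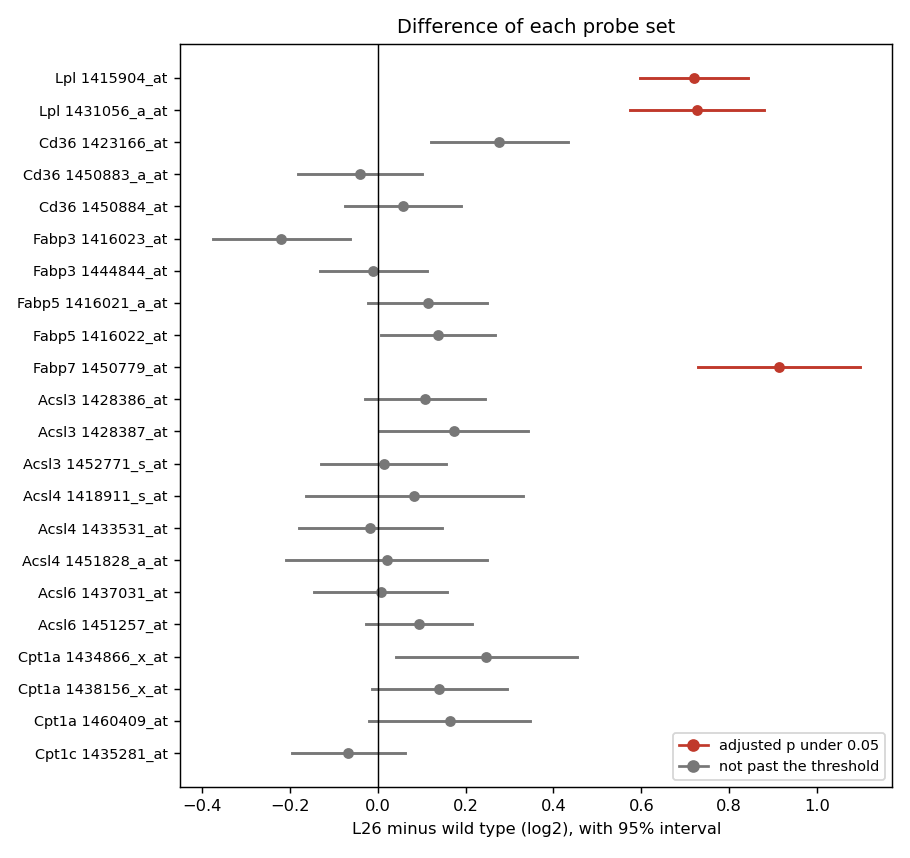
Difference L26 minus WT on the log2 scale for each member probe set, with its 95% interval from the limma fit. Both Lpl probe sets and Fabp7 stand apart at 0.72, 0.73 and 0.91, and the other 19 lie between -0.22 and 0.28.

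Acyl-CoA synthetases join fatty acids to coenzyme A. Acsl3, whose protein is known from the endoplasmic reticulum and lipid droplets, had 0.11 (SE 0.06), 0.17 (SE 0.08) and 0.01 (SE 0.06) on 1428386_at, 1428387_at and 1452771_s_at. The middle one separated the groups, with 9.0, 9.19 and 9.01 in L26 arrays and 8.78, 8.94 and 8.96 in WT arrays. These probe sets belong to 1 transcript record, and none passed. Acsl6, a brain-enriched synthetase gene, had 0.09 (SE 0.05) on 1451257_at and 0.01 (SE 0.07) on 1437031_at. On 1451257_at the L26 values of 11.29, 11.31 and 11.32 were above the WT values of 11.25, 11.22 and 11.17, but the gap was small and the difference did not pass.

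Acsl4, which prefers arachidonic acid, varied more among the L26 mice than between the groups. On 1418911_s_at the L26 arrays had 9.10, 9.59 and 9.36, against 9.34, 9.20 and 9.26 in WT arrays. On 1451828_a_at they had 7.31, 7.71 and 7.44, against 7.53, 7.34 and 7.53. On 1433531_at the values were 10.26, 10.39 and 10.13 in L26, against 10.32, 10.25 and 10.26 in WT. L26 replicate 2 was the highest L26 array on all 3 Acsl4 probe sets and on all 3 of Acsl3. The SDs for Acsl4 were 0.25, 0.20 and 0.13 in L26 and 0.07, 0.11 and 0.04 in WT, on 1418911_s_at, 1451828_a_at and 1433531_at in this order. Differences were 0.08, 0.02 and -0.02, each smaller than its SE. Over the whole set L26 replicate 2 was the highest L26 array on 8 of 22 probe sets, and on 30.3% of all probe sets.

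The carnitine palmitoyltransferases stand at the entry to mitochondrial oxidation. Cpt1a, the form that carries most of that activity outside muscle, had a higher L26 mean on each of its 3 probe sets, with overlapping groups on all of them. On 1460409_at it read 9.22, 9.15 and 9.43 in L26 arrays, against 9.01, 9.14 and 9.16 in WT arrays, a difference of 0.16 (SE 0.08). 1434866_x_at had 0.25 (SE 0.09) and 1438156_x_at, which is dim, 0.14 (SE 0.07), and both are open to related transcripts. None passed. Cpt1c, a neuronal form with little transferase activity, had 11.34, 11.27 and 11.31 in L26 arrays, against 11.44, 11.35 and 11.33 in WT arrays. Its difference on 1435281_at was -0.07 (SE 0.06, 95% interval -0.20 to 0.06). Over the 19 probe sets not past the threshold the intervals reached from -0.38 to 0.45.

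Other genes of lipid handling were mostly not called. Of 148 such genes in 11 lists by role, 135 were measured; 4 rose and 2 fell, against 2.63% and 2.57% of all genes, 5.19% in all (adjusted p under 0.05, limma over 18193 genes). Their median difference was 0.02, and that of all genes 0.01. Leaving out L26 replicate 2, L26 replicate 3, WT replicate 1 or WT replicate 2 brought the 4 rises to 2 each time. The rises were those of Rxrg, Elovl1, Slc25a20 and Dbi, and the falls those of Fads6 and Lpin1. Among the partners of the lipase 0 of 11 measured passed, in either direction, and 2 had an unadjusted p under 0.05 with a higher and 1 with a lower mean. Gpihbp1, the endothelial anchor of the lipase, had the smallest p of these, with 0.21 (SE 0.06, adjusted p = 0.0750, limma). Its values were 7.27, 7.15 and 7.11 in L26 arrays, against 6.97 on each WT array.

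Of 17 other lipid binding protein genes 1 passed, Dbi, which encodes the acyl-CoA binding protein and is abundant in glia. Dbi read 12.74, 12.75 and 12.81 in L26 arrays, against 12.38, 12.48 and 12.42 in WT arrays, and rose by 0.34 (SE 0.05, adjusted p = 0.00875, limma). The probe set, 1455976_x_at, is open to related transcripts, but the 3 others of Dbi had 0.32 to 0.44. Of 19 genes of the carnitine shuttle and mitochondrial oxidation, Slc25a20, the carnitine-acylcarnitine carrier gene, rose by 0.36 (SE 0.08, adjusted p = 0.0281, limma). Its L26 values of 9.27, 9.32 and 9.26 all exceeded the WT values of 8.82, 8.85 and 9.09. That call was lost without any 1 array other than WT replicate 3, with an adjusted p of 0.105 without L26 replicate 2. The other Slc25a20 probe set had 0.25. The other 18 genes of that list had differences from -0.20 to 0.14.

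Among 19 fatty acid synthesis genes 1 rose and 1 fell. Elovl1, the elongase gene of very long chains, rose by 0.37 (SE 0.07, adjusted p = 0.0232, limma), a call lost without L26 replicate 2 or 3 or WT replicate 1 or 2 (adjusted p = 0.0722 without L26 replicate 2). Its other probe sets had 0.07 to 0.44. Fads6, a member of the fatty acid desaturase family, had 8.01, 7.89 and 7.69 in L26 arrays, against 8.72, 9.06 and 8.55 in WT arrays. It fell by 0.91 (SE 0.13, adjusted p = 0.00533, limma), the widest difference among the 135 genes, but its second probe set, below the lower quartile, had 0.04. Of 16 genes of glyceride synthesis and lipid droplets Lpin1, a phosphatidate phosphatase gene, fell by 0.42 (SE 0.07, adjusted p = 0.00956, limma), with -0.05 on its other probe set. With the mean of its probe sets Lpin1 had -0.24 and did not pass (adjusted p = 0.0940). Of 11 genes of PPAR factors and their targets Rxrg, a retinoid X receptor gene, rose by 0.49 (SE 0.07, adjusted p = 0.00759, limma). The Rxrg values were 8.21, 7.97 and 8.01 in L26 arrays, against 7.61, 7.5 and 7.62 in WT arrays, with a clear gap. Ppara, Ppard and Pparg did not pass.

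The remaining lists had 0 calls each. Other lipases (9 measured) had their smallest p at Pnpla6, with 0.13 (adjusted p = 0.237), and lipoprotein receptors and apolipoproteins (9) at Lrp2, with 0.18 (adjusted p = 0.195). Uptake and transport genes (8) had theirs at Slc27a2, an acyl-CoA synthetase of the fatty acid transport protein family, with 0.27 (adjusted p = 0.175). For other acyl-CoA synthetases (8) it was Acss2, with 0.19 (adjusted p = 0.126), and for peroxisomal oxidation (8) Abcd3, with 0.10 (adjusted p = 0.319, all limma). An unadjusted p under 0.05 was found for 1, 1, 2, 1 and 0 genes of these lists in this order, all higher in L26. The other probe set of Abcd3 had -0.13. Those of Lrp2 had 0.01 and 0.15, and those of Acss2 0.02 and 0.19.

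**Figure D3:**
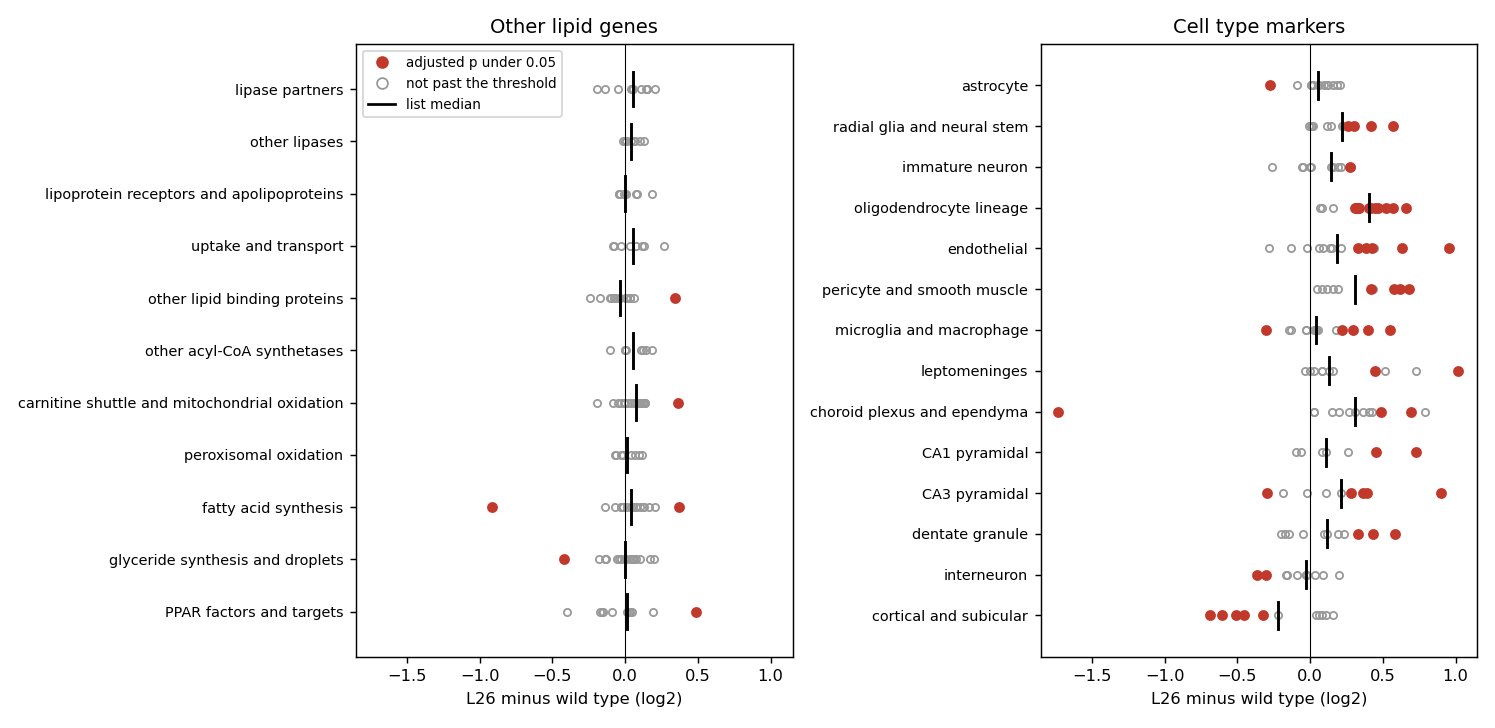
Differences L26 minus WT (log2) of the other lipid genes by role and of cell type markers, a circle for each gene, filled where the adjusted p was under 0.05, with a bar at each list's median. The lipid lists centre near 0, and the oligodendrocyte list has the highest median, 0.41.

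Markers of several cell types that use these genes moved on the same arrays, where 2.63% of all genes rose and 2.57% fell. For Fabp7 the nearest are radial glia and astrocytes. Of 13 radial glia and neural stem markers 4 rose and 0 fell, and their mean level ran from 9.95 to 9.99 over L26 arrays, against 9.75 to 9.79 over WT arrays. Prom1 rose by 0.57 (SE 0.09, adjusted p = 0.0109), Tnc by 0.42 (SE 0.07, adjusted p = 0.0148) and Emx2 by 0.30 (SE 0.06, adjusted p = 0.0169, all limma). The Prom1 call was lost without L26 replicate 3, that of Tnc without L26 replicate 2 or 3 or WT replicate 2 and with the mean of its probe sets (0.26), and that of Emx2 without any 1 array but WT replicate 3. Of 15 astrocyte markers 0 rose and 1 fell, S100b by 0.28, with means of 11.54 to 11.56 over L26 arrays and 11.47 to 11.52 over WT arrays. The S100b call was lost without L26 replicate 2 or 3 or WT replicate 1 or 2 (adjusted p of at most 0.0675, limma). Without adjustment 3 astrocyte markers were higher and 1 lower. The median differences were 0.22 for the radial glia and 0.06 for the astrocyte list.

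Immature neuron markers had 1 of 11 higher, Igfbpl1 by 0.28, a call lost without any 1 array. It was also lost with repeated quantile normalization, with arrays centred on their medians and with the intensity trend. Oligodendrocyte lineage markers had 12 of 15 higher, with Mal at 0.66, Cnp at 0.41 and Olig2 at 0.33, and means of 11.06 to 11.34 over L26 arrays and 10.81 to 10.87 over WT arrays. The lipase acts at the vessel wall, and endothelial markers had 5 of 14 higher, Cldn5 by 0.95, Kdr by 0.63 and Flt1 by 0.43. Endothelial means ran from 8.64 to 8.72 over L26 arrays, against 8.43 to 8.46 over WT arrays. The endothelial differences ran from -0.28 to 0.95 with a median of 0.18, and 11 of 14 were positive. Pecam1, Cdh5 and Ocln had 0.14, 0.09 and 0.06, with overlapping groups, and did not pass. Pericyte and smooth muscle markers had 4 of 10 higher, Rgs5 by 0.62, Pdgfrb by 0.68 (0.12 on its other probe set, and 0.40 with the mean of both) and Abcc9 by 0.58, the last by a probe set shared with related transcripts (0.16 without such probe sets). Microglia and macrophages, which also make Lpl and Cd36, had 4 of 14 higher, among them Fcrls, C1qb and C1qc by 0.55, 0.29 and 0.40. P2ry12 was lower by 0.30, and the list had a mean of 8.87 over each L26 array and 8.73 to 8.83 over WT arrays. The median difference of this list was 0.04, and 9 of 14 were positive. C1qa, Aif1 and Cx3cr1 had -0.03, -0.15 and 0.03 and did not pass. Leptomeningeal markers had 2 of 11 higher, Col3a1 by 1.01 (0.01 on its other probe set) and Slc6a13 by 0.45, and their means overlapped, at 9.12 to 9.39 over L26 arrays and 8.83 to 9.17 over WT arrays. Those of choroid plexus and ependyma had 2 of 13 higher, Tmem212 by 0.69 and Ccdc153 by 0.49, and Kcne2 lower by 1.73. Their means overlapped too, at 8.61 to 9.32 over L26 arrays and 8.47 to 9.04 over WT arrays. L26 replicate 2 and WT replicate 1 were the lowest of their groups on choroid genes such as Aqp1, picked after its values were seen, with 8.38, 7.26 and 8.80 in L26 arrays and 7.44, 8.27 and 8.27 in WT arrays. Of the genes named for these lists, Cnp, Olig2, Abcc9, C1qb, C1qc, P2ry12, Slc6a13, Tmem212 and Ccdc153 missed the threshold without at least 1 of the arrays, with an adjusted p of at most 0.0991 (limma, C1qc without L26 replicate 3). With the replicate block C1qb (adjusted p = 0.0612) and P2ry12 (adjusted p = 0.0522, both limma) missed it as well.

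Neuronal field markers, which bear on Lpl, moved in part as well. CA1 markers had 2 of 7 higher, Lefty1 by 0.73 and Fibcd1 by 0.45, and list means of 10.26 to 10.29 over L26 arrays and 10.02 to 10.11 over WT arrays. CA3 markers had 4 of 9 higher, led by Iyd (0.90), Bok (0.39) and Npy2r (0.36), and Cpne4 lower by 0.30, although its other probe set had 0.33. The CA3 means were 9.39 to 9.41 over L26 arrays and 9.20 to 9.21 over WT arrays. Dentate granule markers had 3 of 11 higher, Lct by 0.58, C1ql2 by 0.43 and Tdo2 by 0.33, with means of 9.65 to 9.71 over L26 arrays and 9.52 to 9.56 over WT arrays. The dentate list was mixed, with 7 of 11 differences positive, and without adjustment 5 genes were higher and 3 lower. Pdzd2 and Dsp had -0.20 and -0.17, with all L26 values below all WT values, and did not pass. None of these field lists had array means that overlapped between the groups. Interneuron markers had 0 of 11 higher and 2 lower, Reln by 0.37 and Pvalb by 0.30. Cortical and subicular markers had 5 of 11 lower, among them Ccn2 by 0.69, Tshz2 by 0.60 and Lamp5 by 0.51. Npy2r, Cpne4, Tdo2, Reln, Pvalb and Lamp5 missed the threshold without at least 1 of the arrays, with an adjusted p of at most 0.134 (limma, Pvalb without L26 replicate 2). With the replicate block Pvalb (adjusted p = 0.0567), Reln (adjusted p = 0.0679) and Cpne4 (adjusted p = 0.0667, all limma) missed it as well. Pvalb also missed it with repeated quantile normalization (adjusted p = 0.0599, limma). With the mean of its probe sets Reln had -0.17 (adjusted p = 0.133) and Tdo2 0.24 (adjusted p = 0.0590), and neither passed. The other Reln probe set had 0.04. Over all lists 43 of 162 marker genes rose and 11 fell, against 2.63% and 2.57% of all genes. These counts were 18 and 4 without L26 replicate 2 and also without L26 replicate 3, 26 and 6 without WT replicate 1, 27 and 6 without WT replicate 2, 30 and 6 without WT replicate 3, and 38 and 7 without L26 replicate 1. The part of any of these cell types in the Lpl and Fabp7 values was not tested.

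Profiles over the 6 arrays were compared after each gene's own mean had been subtracted, by the root mean square difference between them in log2 units. Nearest to Lpl lay Nuf2, a kinetochore component gene (0.035), Ddc, the aromatic amino acid decarboxylase gene (0.050), Pdxdc1, of a related decarboxylase family (0.052), and Thsd4, an extracellular matrix protein gene (0.053). Their differences ran from 0.67 to 0.77. Nearest to Fabp7 lay Nek2, a mitotic kinase gene (0.063), Cldn5, the endothelial tight junction gene (0.064), Lin7c, a scaffold protein gene (0.084), and Uck2, a uridine-cytidine kinase gene (0.10), measured by a probe set shared with related transcripts. These had differences of 0.77 to 0.95. In both sets L26 and WT arrays stood apart, so the measure mostly picks genes with a group difference of the same size.

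**Figure D4:**
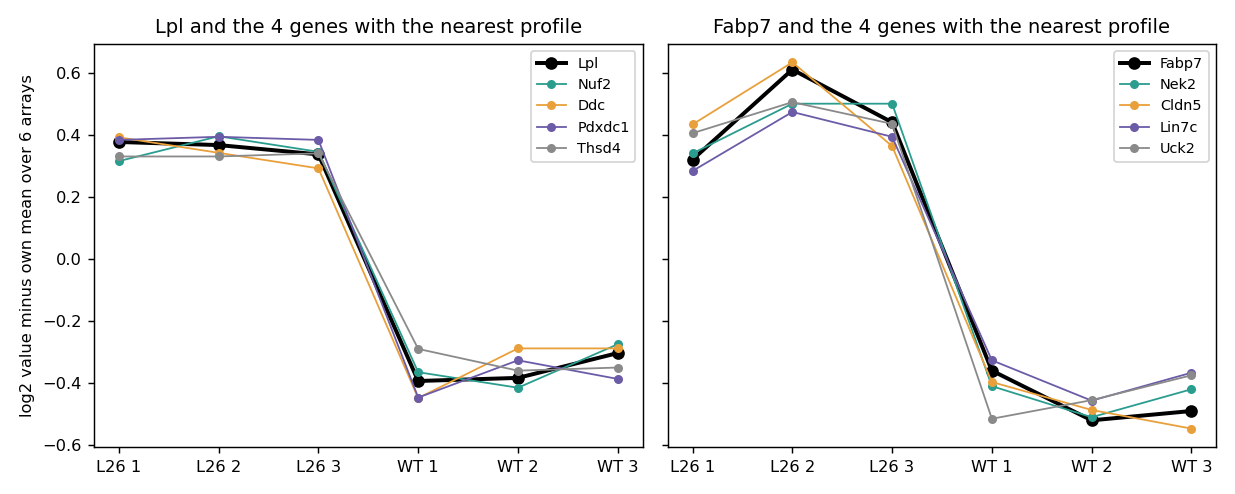
Log2 values minus each gene's mean over the 6 arrays, for Lpl and for Fabp7 (black) with their 4 nearest genes. Lines only join the values of a gene, and all 10 profiles are high on the L26 arrays and low on the WT arrays.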

How the data were processed

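The authors deposited 1 log2 expression value per probe set and array, made with RMA and the affy package per the submitters' processing notes, versions not given in the sources used here. As generally run, RMA subtracts background, quantile-normalizes and summarises by median polish, and compresses differences of dim transcripts. There are no detection calls, and the number of arrays limits the precision.

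After 64 AFFX controls were left out, 45037 probe sets were fitted without a filter in limma 3.58.1 (R 4.3.3, lmFit and eBayes, L26 minus WT, two-sided, Benjamini-Hochberg, threshold 0.05). For 18193 genes the brightest probe set, by its mean over both groups, was fitted likewise. The platform annotation gave 34945 probe sets 1 symbol, 932 several and 9160 none. All 22 member probe sets matched the RefSeq table (GRCm38.p6) by Entrez identifier. Values after ± are SDs.

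The members and lists were chosen with earlier results of these data known. Named are all member probe sets, up to 3 genes per list and direction by smallest p, the smallest p of lists without a call, and the 4 nearest profiles of Lpl and Fabp7. In simulated data of 45037 probe sets, 3 arrays against 3, 67 probe sets were changed by 0.5, 67 by 1 and 66 by 2 (log2). Of these 67.2%, 89.6% and 100% were recovered, with 12 false among 183 calls. The noise was drawn independently for each value, and far fewer probe sets were changed than the 1764 called in the real data. The recovery rates may therefore not carry over. Alternatives were a replicate block, each array left out, repeated quantile normalization, median centring, removal of the dimmest 40% or of _x_at and _s_at probe sets, trend and robust prior, array weights, gene means and a threshold of 0.1. Background correction could not be varied on these values.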

Additional observations from a re-analysis of the deposited data

How the results depend on the processing

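The member calls, 3 higher and 0 lower, kept their counts over 14 alternatives except that Cd36 joined as the 4th without WT replicate 1, with the intensity trend and robust prior, and at a threshold of 0.1. Deviations of same-numbered arrays correlated at -0.04, -0.07 and 0.15, which cannot settle whether replicate numbers pair the arrays. With the replicate block 301 genes were higher (478 without it) and 5 marker genes lower (11 without it), Slc25a20 lost its call (adjusted p = 0.0578), and the members were unchanged in count. The intensity trend with robust prior gave 701 genes lower, against 467, and 4 related lipid genes lower, against 2. At a threshold of 0.1 there were 1725 higher and 1442 lower probe sets, 918 higher and 816 lower genes and 5 lower related lipid genes. Leaving out each array gave 356 to 787 higher and 454 to 661 lower probe sets, and 180 to 358 higher and 221 to 376 lower genes. It gave 2 to 4 higher and 2 to 3 lower related lipid genes, 18 to 38 higher and 4 to 7 lower marker genes, and 3 to 4 higher and 0 lower member probe sets. With 1 array fewer the fit has fewer samples, and the cause of the other shifts was not tested. Cpne4 turned to 0.017 with the mean of its probe sets, which differ in sign. Centring moved the median difference of all genes to -0.02.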
